A study of Homo sapiens with 8 samples.

Results

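The messenger RNAs of 10 genes of the NF-kB pathway were followed in LNCaP cells, an established human cell line from a metastatic prostate carcinoma, after addition of asporin (ASPN), a small leucine-rich protein of the extracellular matrix. The genes were NFKB1, NFKB2, RELA and RELB, which encode subunits of NF-kB, NFKBIA and NFKBIE, which encode its inhibitors, and TNFAIP3, BIRC3, ICAM1 and SOD2, which are known targets of the factor. They were chosen by symbol for these roles, with earlier results of these data known. All 10 had a row among the 36474 genes of the deposited count table. RNA sequencing covered 8 libraries: 2 at 0 h, 3 at 12 h and 3 at 24 h. The cells had been kept without serum and calcium for 6 to 12 h, and then received recombinant ASPN at 100 ng/mL. The labels name ASPN as the treatment of the 0 h libraries too, and do not say what was added to them. No library held for 12 or 24 h without ASPN was used here, so ASPN and the time in starvation medium cannot be told apart. All libraries come from a single cell line plated as triplicate wells, so the p-values measure the spread between such wells.

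NF-kB is a family of dimeric transcription factors. In resting cells IkB proteins hold the dimers in the cytoplasm. Signals from receptors such as those for TNF and IL-1 activate the IKK kinases, the IkB proteins are degraded, and the dimers enter the nucleus and bind kB sites in DNA. Many of the targets restrain or renew the factor in turn: NFKBIA restores the inhibitor, TNFAIP3 removes activating ubiquitin chains, and NFKB1, NFKB2 and RELB renew the subunits. In prostate carcinoma the pathway has been studied for its links to inflammation and to growth under androgen withdrawal.

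The kB consensus was searched on both strands of the RefSeq promoter windows, each from 250 bases before to 50 bases after a transcription start on GRCh38.p14. Of the 8 genes with a window in that table, 5 held at least 1 match (62.5%), beside 13.3% of the 27305 genes with a window. A gene counted if any of its windows held a match, so genes with more windows had more room for one. The genes were chosen as parts and known targets of the pathway, so the contrast is not a test. NFKB2 held 4 stretches with a match, TNFAIP3 and BIRC3 held 2 each, and NFKB1 and NFKBIA held 1 each. No match was found in the 4 windows of SOD2, the 2 of RELA or the single window of ICAM1. RELB and NFKBIE were not in the table. The stretch nearest to the start is shown for each of the 5 genes, because kB sites are the letters that NF-kB recognises, and the capitals mark the match. For NFKB2 another stretch is shown in which 2 matches overlap, with the consensus found on both strands.
NFKB1, chr4:102501300-102501329, plus strand, outside the annotated gene: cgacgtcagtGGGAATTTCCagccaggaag
NFKB2, chr10:102395674-102395703, plus strand, 11 bases in an exon and 19 in an intron: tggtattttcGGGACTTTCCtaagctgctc
NFKB2, chr10:102394462-102394491, plus strand, in an exon: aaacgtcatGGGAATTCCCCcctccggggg
NFKBIA, chr14:35404811-35404840, minus strand, outside the annotated gene: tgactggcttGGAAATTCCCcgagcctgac
TNFAIP3, chr6:137867194-137867223, plus strand, 10 bases in an exon and 20 outside the gene: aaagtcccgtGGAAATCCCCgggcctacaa
BIRC3, chr11:102317339-102317368, plus strand, outside the annotated gene: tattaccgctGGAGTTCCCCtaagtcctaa
A match in a window is a description of its letters, and binding of the factor was not measured.

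Library totals lay between 73406825 and 96962135 counts. Values below are CPM, that is, counts divided by TMM-adjusted library size and set to a common scale, and 3 counts, taken as the limit of what a count of 0 allows, equalled 0.0310 to 0.0413 CPM per library. These limits cover counting error only. The line was recognisable by its luminal prostate markers, of which 9 of 9 were tested, and their summed level was 4725 to 4844 CPM at 0 h, 5285 to 5327 CPM at 12 h and 5277 to 5469 CPM at 24 h. At an edgeR adjusted p of at most 0.05, 6 of the 9 were higher at 12 h against 0 h, beside 4.85% of all genes. At 24 h, 8 were higher and 1, KRT18, lower, beside 7.82% and 8.49%. The largest log2 fold change was that of KLK3 at 12 h, 0.49 (SE 0.048, adjusted p = 3.37e-08). Of 12 markers of stroma, endothelium, immune cells and basal epithelium, 10 had a row and 3 (COL1A1, VWF and CD68) were tested. Their summed level was 34.7 to 36.9 CPM at 0 h, 33.8 to 36.1 CPM at 12 h and 30.3 to 32.9 CPM at 24 h. COL1A1, at 18.9 to 21.3 CPM, and VWF, at 11.2 to 17.3 CPM, made up most of this sum. VWF had a log2 fold change of -0.38 at 24 h against 0 h (SE 0.085, edgeR adjusted p = 0.00175). PTPRC, PECAM1, CDH5, DCN, CD14, CD3E and TP63 had at most 7 counts in any library. Mitochondrial genes took 6.66% and 6.96% of the counts at 0 h, 6.20% to 6.93% at 12 h and 6.84% to 7.32% at 24 h. The part of these shifts in the differences described next was not tested. In bulk RNA, fewer cells that express a gene and less of its RNA per cell cannot be told apart.

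SOD2, the mitochondrial superoxide dismutase, was the only one of the 10 genes that passed the test at either time. It fell by 11.6% at 12 h and by 12.8% at 24 h. The 4 subunit genes, the 2 inhibitor genes, TNFAIP3 and BIRC3 did not pass in any comparison, and ICAM1 lay below the count limit for testing. A gene passed at an adjusted p of at most 0.05 (quasi-likelihood F test of edgeR, Benjamini-Hochberg over all 21071 genes tested), and was called where it also changed by at least 1.5-fold.

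At 12 h against 0 h, 1 of the 9 tested genes passed, beside 11.6% of all genes tested, and 0 were called, beside 1.05%. At 24 h against 0 h, again 1 of 9 passed, beside 16.3% of all genes, and 0 were called, beside 2.45%. Between 24 h and 12 h, 0 of 9 passed, beside 2.72% of all genes, and 0 were called, beside 0.18%. At an unadjusted p of at most 0.05, 4 of the 9 passed at 12 h against 0 h (23.5% of all genes), 3 at 24 h against 0 h (27.3%) and 0 at 24 h against 12 h (13.6%). DESeq2 gave the counts 1, 1 and 0 for adjusted p. The median log2 fold change of the 9 genes was 0.077 at 12 h and 0.056 at 24 h against 0 h, beside -0.00069 and -0.0031 over all genes tested, and -0.021 at 24 h against 12 h, beside 0.0035. Both comparisons with 0 h rest on the same 2 libraries.

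**Figure D1:**
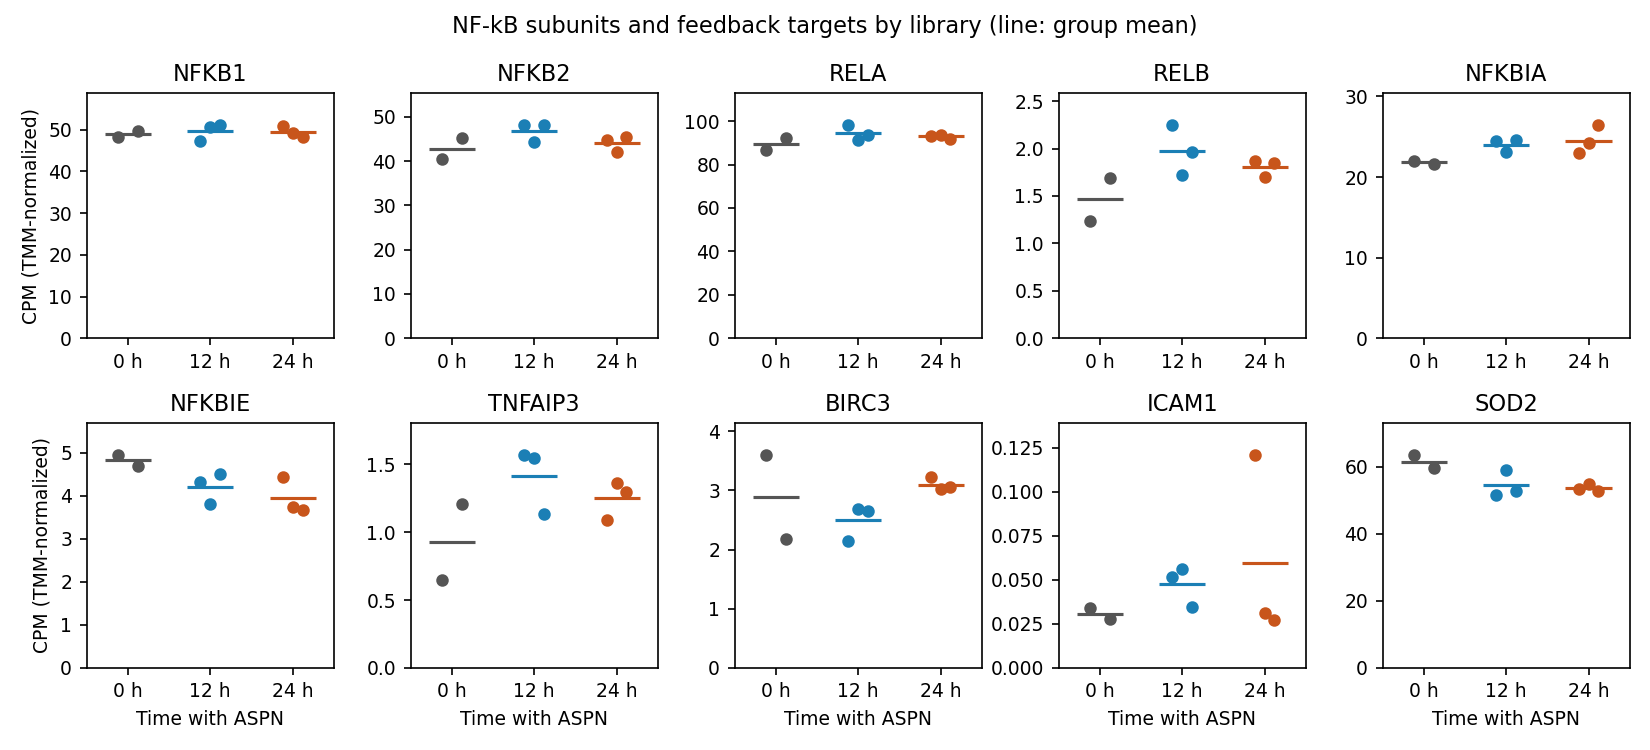
TMM-normalized CPM (vertical axis, linear from 0, own scale per gene) of each of the 10 genes in each library at 0, 12 and 24 h; points are libraries and lines are group means. SOD2 is the gene with both 0 h libraries (63.6 and 59.7 CPM) above all later ones and a passed test, and ICAM1 stays at or below 0.121 CPM.

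The genes differed far more from each other than between times. Compared per length, as CPM per kilobase of the MANE Select transcript, RELA stood highest at 0 h with 35.6 ± 1.66 (SD, n = 2). NFKB2 followed with 14.2 ± 1.14, NFKBIA with 13.9 and 14.1 in its 2 libraries, and NFKB1 with 12.1 ± 0.280. The ranges of NFKB2 and NFKBIA overlapped, so their order is not resolved. SOD2 stood at 4.35 ± 0.195 and NFKBIE at 2.06 ± 0.0743. The place of SOD2 rests on its MANE Select length of 14.2 kilobases. Before division by length, SOD2 stood at 61.6 CPM at 0 h, above NFKB1 (48.9) and NFKB2 (42.9) and below RELA (89.5). Which transcripts of SOD2 were present was not measured. RELB reached 0.649 ± 0.142, BIRC3 0.420 ± 0.147 and TNFAIP3 0.199 ± 0.0854 CPM per kilobase. The 2 libraries ranged from 0.548 to 0.749 for RELB, from 0.316 to 0.523 for BIRC3 and from 0.139 to 0.259 for TNFAIP3, so that neighbours in this order came close without overlap. ICAM1 was lowest at 0.0104 ± 0.00156 CPM per kilobase. Dividing by the union of all annotated exons instead gave 16.4 for RELA and 7.68 for NFKB2, and put SOD2 (3.40) above NFKB1 (3.12).

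**Figure D2:**
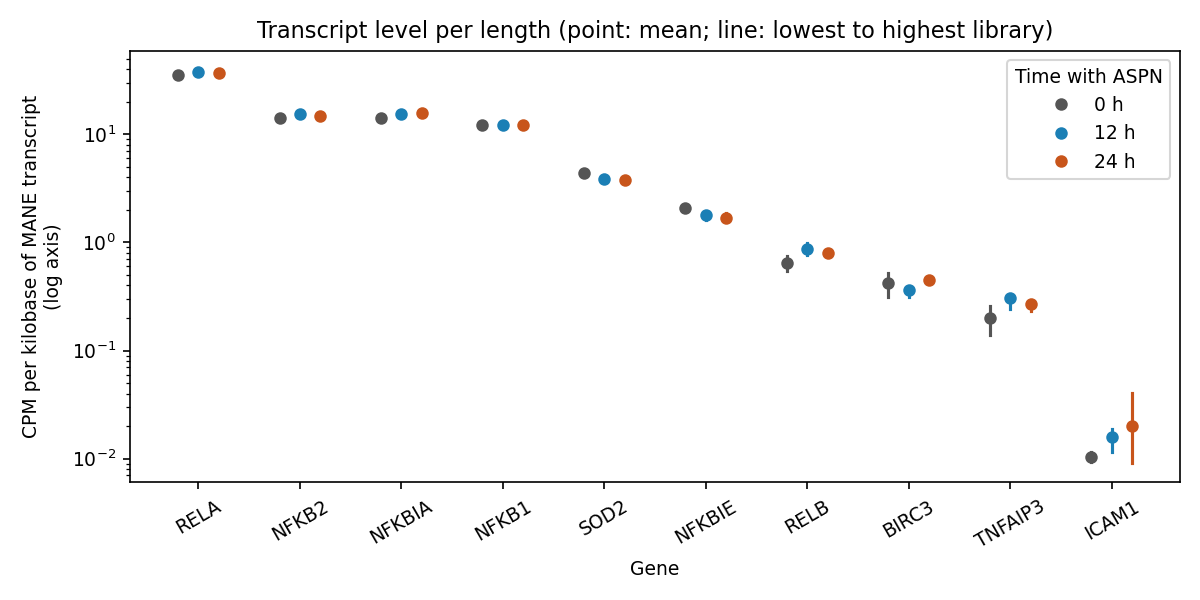
CPM per kilobase of MANE Select transcript (vertical axis, logarithmic) of the 10 genes at 0, 12 and 24 h; points are means of 2, 3 and 3 libraries and lines run from the lowest to the highest library. The genes keep their places over the 3 times, from RELA (35.6 at 0 h) down to ICAM1 (0.0104 at 0 h), apart from NFKB2 and NFKBIA, which lie side by side.

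Among the subunits, RELA, which carries the main transactivation domain of the family, made up 55.4% to 57.8% of the summed level per kilobase of the 5 subunit genes (REL, the fifth, included) in the 8 libraries. NFKB2 made up 21.6% to 23.7% and NFKB1 17.2% to 19.5%. RELB and REL took small shares, 0.901% to 1.46% and 0.646% to 0.963%. With this length the composition thus varied by a few percentage points between libraries of the same time and of different times alike. The shares themselves depend on the length chosen. Per kilobase of the union of exons at 0 h, RELA stood at 16.4, NFKB2 at 7.68, NFKB1 at 3.12 and RELB at 0.489 CPM. Shares with that length were not computed.

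RELA (chromosome 11, 65653597 to 65663090, minus strand, GRCh38) stood at 86.6 and 92.5 CPM in the 0 h libraries (replicate 1, then the library without a matching number), at 98.0, 91.5 and 93.7 CPM in replicates 1 to 3 at 12 h, and at 93.3, 93.8 and 92.0 CPM at 24 h. The groups overlapped at both times. Its log2 fold change was 0.077 (SE 0.049, 95% interval -0.022 to 0.18, edgeR adjusted p = 0.362) at 12 h and 0.056 (SE 0.049, adjusted p = 0.510) at 24 h. A correction for GC content and length brought the second value to -0.0027.

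NFKB1 (chromosome 4, 102501331 to 102617302, plus strand) encodes a precursor from which a DNA-binding subunit without transactivation domain is made. Its level was 48.1 and 49.7 CPM at 0 h, 47.3, 50.6 and 51.0 CPM at 12 h and 50.9, 49.1 and 48.3 CPM at 24 h, and the 3 groups lay on top of each other. The log2 fold change was 0.022 (SE 0.054, 95% interval -0.088 to 0.13) at 12 h and 0.017 (SE 0.054, interval -0.093 to 0.13) at 24 h, with edgeR adjusted p of 0.865 and 0.892. With the GC and length correction it passed at 12 h, at 0.15 and an adjusted p of 0.0432, and with the replicate block added it did not, at 0.15 and 0.0575.

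NFKB2 (chromosome 10, 102394110 to 102402524, plus strand) encodes the corresponding precursor of the non-canonical branch. It stood at 40.4 and 45.3 CPM at 0 h, 48.1, 44.3 and 48.1 CPM at 12 h and 44.9, 42.0 and 45.4 CPM at 24 h. The second 0 h library lay within the range of both later groups. Its log2 fold change was 0.13 (SE 0.060, 95% interval 0.0060 to 0.25, edgeR adjusted p = 0.185) at 12 h and 0.041 (SE 0.060, adjusted p = 0.729) at 24 h. Without the unnumbered 0 h library the 12 h value was 0.22 with an adjusted p of 0.0339, and without 0 h replicate 1 it was 0.047. The sign at 24 h turned without 0 h replicate 1 (-0.044) and with the GC and length correction (-0.077).

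RELB (chromosome 19, 45001449 to 45038198, plus strand), the partner of the NFKB2 product in the non-canonical branch, was scarce, with 1199 counts over the 8 libraries. It was at 1.24 and 1.69 CPM at 0 h, 2.24, 1.72 and 1.96 CPM at 12 h and 1.87, 1.70 and 1.85 CPM at 24 h. Every later library lay above both 0 h libraries, but the margin was narrow, with the lowest later libraries at 1.72 and 1.70 CPM beside 1.69 CPM in the higher 0 h library. The log2 fold change was 0.43 (SE 0.20, 95% interval 0.028 to 0.84, edgeR adjusted p = 0.175) at 12 h and 0.31 (SE 0.20, interval -0.100 to 0.71, adjusted p = 0.348) at 24 h. Without 0 h replicate 1 these values were 0.22 and 0.088, and without the unnumbered library 0.68 and 0.55.

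Of the inhibitors, NFKBIA (chromosome 14, 35401513 to 35404749, minus strand) encodes IkB alpha, the inhibitor that NF-kB itself renews most rapidly. It stood at 22.0 and 21.7 CPM at 0 h, 24.5, 23.1 and 24.5 CPM at 12 h and 23.0, 24.2 and 26.4 CPM at 24 h. All 6 later libraries lay above both 0 h libraries, which were close to each other. The log2 fold change was 0.14 (SE 0.068, 95% interval -0.00078 to 0.28, edgeR adjusted p = 0.216) at 12 h and 0.17 (SE 0.068, interval 0.028 to 0.31, adjusted p = 0.0972) at 24 h. Its upper bound at 24 h corresponds to less than the 1.5-fold used for calls. Over all alternatives tried, the adjusted p at 24 h ranged from 0.0653 to 0.378.

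NFKBIE (chromosome 6, 44258166 to 44265788, minus strand) encodes IkB epsilon, a slower inhibitor of the same dimers. Its values were 4.95 and 4.70 CPM at 0 h, 4.32, 3.81 and 4.51 CPM at 12 h and 4.43, 3.74 and 3.68 CPM at 24 h. All later libraries lay below both 0 h libraries, the opposite side from NFKBIA. The log2 fold change was -0.20 (SE 0.13, 95% interval -0.46 to 0.065, edgeR adjusted p = 0.381) at 12 h and -0.29 (SE 0.13, interval -0.55 to -0.027, adjusted p = 0.134) at 24 h. With the GC and length correction the 24 h value was -0.39 and passed, with an adjusted p of 0.0259, and with the replicate block added it was -0.35 and did not (0.0759).

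Counted over the 9 tested genes, 4 had groups without overlap at 12 h against 0 h, namely RELB and NFKBIA above and NFKBIE and SOD2 below. Of all genes tested, 36.9% had groups without overlap in this comparison, 17.3% above and 19.6% below. The 4 genes also had no overlap at 24 h against 0 h, where 43.2% of all genes had none (21.5% above and 21.7% below). With 2 libraries in the 0 h group such a separation is common, and the share among the 9 genes was near that of all genes.

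Of the feedback targets, TNFAIP3 (chromosome 6, 137867214 to 137883312, plus strand), the ubiquitin-editing enzyme that shuts off TNF and Toll-like receptor signalling, had 829 counts over the 8 libraries. It was at 0.647 and 1.21 CPM at 0 h, 1.57, 1.55 and 1.13 CPM at 12 h and 1.09, 1.36 and 1.29 CPM at 24 h. The first 0 h library was the lowest of the 8, and the second lay within both later groups. The log2 fold change was 0.62 (SE 0.26, 95% interval 0.10 to 1.14, edgeR adjusted p = 0.121) at 12 h and 0.44 (SE 0.26, interval -0.083 to 0.97, adjusted p = 0.283) at 24 h. These values rested on the choice of 0 h library. Against 0 h replicate 1 alone they were 1.14 and 0.95, with adjusted p of 0.0171 and 0.0420, and against the unnumbered library alone they were 0.22 and 0.040, with adjusted p of 0.808 and 0.966. TNFAIP3 shares 1.47% of its exon bases with WAKMAR2, a long non-coding RNA on the other strand, whose log2 fold change at 12 h was 0.99 (SE 0.47, adjusted p = 0.189).

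BIRC3 (chromosome 11, 102317450 to 102339403, plus strand), an inhibitor of apoptosis protein with ubiquitin ligase activity in TNF receptor complexes, was at 3.60 and 2.17 CPM at 0 h, 2.15, 2.68 and 2.65 CPM at 12 h and 3.22, 3.03 and 3.05 CPM at 24 h. The 2 libraries at 0 h held the highest value and the second lowest of all 8. The log2 fold change against 0 h was -0.22 (SE 0.17, edgeR adjusted p = 0.501) at 12 h and 0.094 (SE 0.17, adjusted p = 0.796) at 24 h, and leaving out 0 h replicate 1 turned the first to 0.20 while leaving out the unnumbered library turned the second to -0.21. Between 12 h and 24 h, where each group has 3 libraries, all 24 h values lay above all 12 h values. BIRC3 was 1 of 9 without overlap in this comparison, beside 19.6% of all genes (10.3% above and 9.33% below), and its log2 fold change was 0.31 (SE 0.16, 95% interval -0.0050 to 0.63, adjusted p = 0.377).

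ICAM1 (chromosome 19, 10271093 to 10286615, plus strand), an adhesion molecule for leukocytes and a standard readout of NF-kB in many cell types, was nearly undetected. It had 3 and 2 counts at 0 h, 4, 5 and 3 counts at 12 h and 11, 3 and 2 counts at 24 h. Only the first 24 h library stood out, at 0.121 CPM, while the others lay between 0.0272 and 0.0561 CPM. The antisense gene ICAM4-AS1, which shares 23.6% of the exon bases of ICAM1 on the other strand, had 5 counts in that same library, 2 in replicate 3 at 12 h and 0 in the other 6. Whether reads were counted by strand was not given in the sources used here, so reads of the overlap cannot be assigned to either gene. Without the filter on low counts the edgeR adjusted p of ICAM1 was 0.912 at 12 h and 0.799 at 24 h against 0 h, and no fold is given because both 0 h libraries were at or under the limit of 3 counts.

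SOD2 (chromosome 6, 159669069 to 159762529, minus strand) encodes the manganese superoxide dismutase of the mitochondrial matrix, which NF-kB induces in many cells exposed to TNF. Its level was 63.6 and 59.7 CPM at 0 h, 51.6, 59.0 and 52.9 CPM at 12 h and 53.5, 54.9 and 52.8 CPM at 24 h. Both 0 h libraries lay above all 6 later ones, the nearest of which was replicate 2 at 12 h. SOD2 decreased by 0.18 on the log2 scale at 12 h (SE 0.057, 95% interval -0.29 to -0.062, edgeR adjusted p = 0.0359) and decreased by 0.20 at 24 h (SE 0.056, interval -0.31 to -0.082, adjusted p = 0.0137). Between 12 h and 24 h it moved by -0.019 (SE 0.051, adjusted p = 0.922).

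The pass at 12 h was lost without 0 h replicate 1 (-0.13, edgeR adjusted p = 0.416), without 12 h replicate 1 (-0.13, 0.136) and without 12 h replicate 3 (-0.15, 0.150), and it was also lost, at adjusted p of 0.0541, 0.0691 and 0.0573, without 24 h replicate 1, 2 or 3. The pass at 24 h was lost without 0 h replicate 1 (-0.15, adjusted p = 0.209), 24 h replicate 1 (-0.19, 0.0528) and 24 h replicate 3 (-0.18, 0.0634). A correction for GC content and length gave -0.13 (adjusted p = 0.0782) and -0.11 (0.104), and the same correction with a block for the replicate number gave -0.17 (0.0152) and -0.15 (0.0209). SOD2 was lower than at 0 h in all of these.

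Part of the SOD2 locus is shared with other genes. The long non-coding RNA SOD2-OT1 covers 5.18% of its exon bases on the same strand and had a log2 fold change of -0.38 (SE 0.19, edgeR adjusted p = 0.233) at 12 h and -0.33 (SE 0.19, adjusted p = 0.285) at 24 h. WTAP covers 2.41% on the other strand and was at -0.0047 and -0.068, with adjusted p of 0.969 and 0.367. ACAT2, with 0.733% on the other strand, was at -0.026 (adjusted p = 0.826) at 12 h and passed at 24 h, at -0.18 (adjusted p = 0.0130). The longest SOD2 transcript, of 14167 bases, also holds stretches at least 95% identical to transcripts of genes elsewhere. Those with the most counts over the 8 libraries were MIR99AHG (338 bases, 24609 counts) and ENSG00000233251 (591 bases, 4436 counts). Whether SOD2 shares reads with them was not tested.

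**Figure D3:**
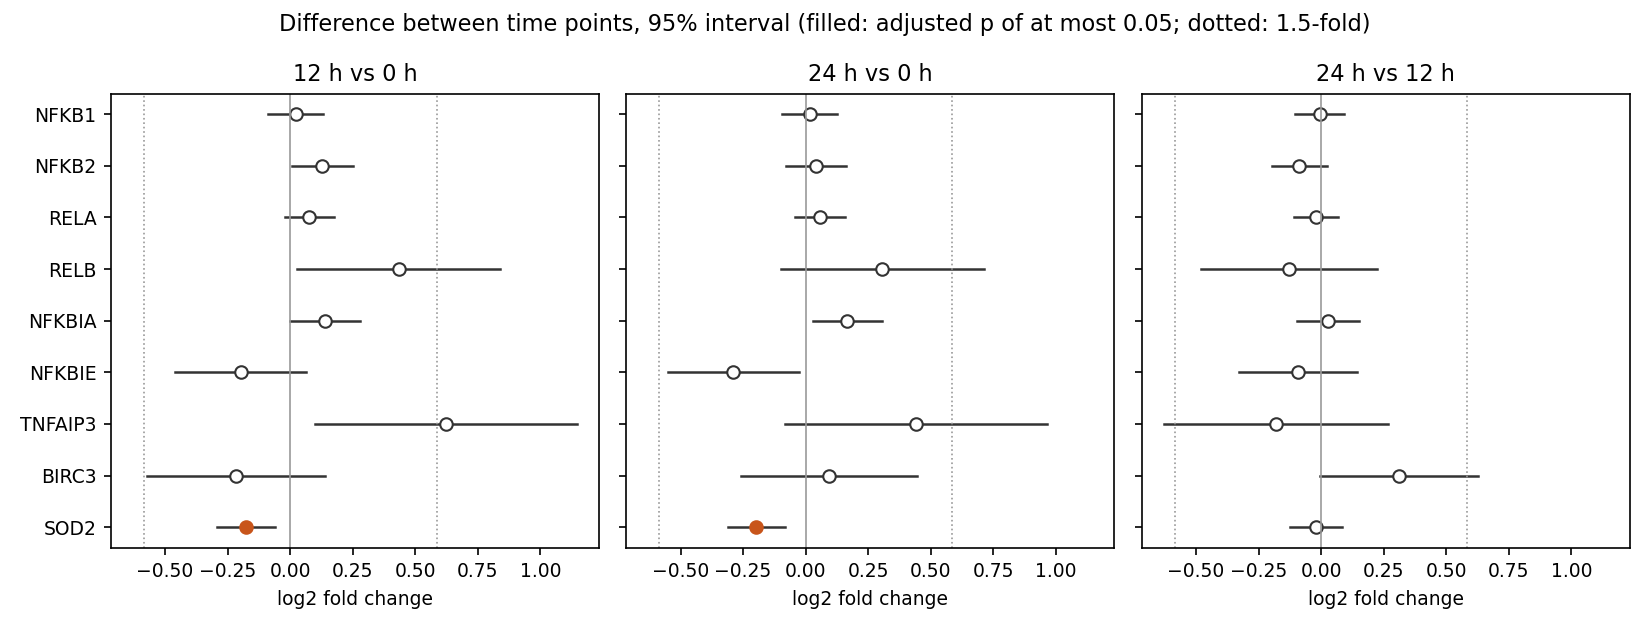
Log2 fold change (horizontal axis) of the 9 tested genes at 12 h against 0 h, 24 h against 0 h and 24 h against 12 h, with 95% intervals; filled points passed at an adjusted p of at most 0.05, and dotted lines mark 1.5-fold. Only SOD2 is filled, at -0.18 and -0.20, and the widest intervals belong to the scarce transcripts TNFAIP3, RELB and BIRC3.

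By the fixed rule, the genes most like SOD2 over the 8 libraries were sought among 13455 well-counted genes (mean normalized count of 100 or more). NECAP1, an adaptor-associated protein of clathrin-coated vesicles, had a Pearson correlation with SOD2 of 0.972 on log2 CPM, CMAS, the enzyme that activates sialic acid, had 0.972, and SEC11A, a catalytic subunit of the signal peptidase, had 0.971. NECAP1 ran from 59.9 and 55.5 CPM at 0 h to 50.3, 54.9 and 51.5 CPM at 12 h and 51.4, 51.1 and 51.1 CPM at 24 h. These are descriptions over 8 libraries that share their depth and their groups with SOD2.

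The other genes of the pathway were taken from lists made by role, 89 genes in all, of which 81 had a row and 62 were tested. These lists too were chosen with earlier results of these data known. Their counts are therefore set beside those of all genes as a description, not as a test. At 12 h against 0 h, 3 passed as higher and 8 as lower, 11 of 62, beside 4.85% higher and 6.75% lower over all genes. At 24 h against 0 h, 7 passed as higher and 12 as lower, 19 of 62, beside 7.82% and 8.49%. Between 24 h and 12 h, 1 gene passed as higher and 0 as lower, beside 1.12% and 1.61%. Their median log2 fold change was 0.024, 0.020 and -0.0093 in the 3 comparisons, beside the values of all genes given above. The counts leaned on single libraries: without 0 h replicate 1 they were 2 at 12 h and 9 at 24 h against 0 h, and without 24 h replicate 1 the 24 h count was 11.

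Transcripts of the ligands that start NF-kB signalling were close to absent. Of 9 ligand genes 8 had a row and 1 was tested. TNF had at most 4 counts in a library, IL1B at most 1, LTB at most 2 and LTA at most 9. TNFSF12 (TWEAK), the tested one, lay between 0.0272 and 0.176 CPM and did not pass at either time (edgeR adjusted p = 0.523 and 0.556), and it shares 12.1% of its exon bases with a read-through gene on the same strand.

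Among 11 receptor genes, 9 were tested. At 12 h 0 passed, beside 11.6% of all genes, and at 24 h 1 passed, beside 16.3%. This was TNFRSF12A, the receptor of TNFSF12, at 8.91 and 7.74 CPM at 0 h, 9.80, 9.66 and 9.71 CPM at 12 h and 12.7, 14.2 and 11.9 CPM at 24 h. The 3 groups followed each other without overlap. TNFRSF12A was 0.22 higher in log2 at 12 h (SE 0.094, edgeR adjusted p = 0.135), and rose by 0.63 at 24 h (SE 0.093, adjusted p = 6.15e-06), a called change. It was also the pathway gene that passed between 12 h and 24 h, at 0.41 (SE 0.081, adjusted p = 0.00270), a pass lost without 24 h replicate 2 (0.33, adjusted p = 0.0671). Its 24 h value against 0 h fell under 1.5-fold without the unnumbered 0 h library (0.54), without 24 h replicate 2 (0.56) and with the GC and length correction (0.52, or 0.47 together with the replicate block), and passed in each. The well-expressed receptors TNFRSF1A, for TNF, and LTBR, for lymphotoxin, did not pass, at -0.13 (SE 0.049, adjusted p = 0.0655) and 0.12 (SE 0.046, adjusted p = 0.0914) at 24 h. TNFRSF1A lay near the threshold and passed with DESeq2 (adjusted p = 0.0364), the compared time points alone (0.0494), only genes averaging 100 counts or more (0.0458), the GC and length correction (0.00343, or 0.00713 with the replicate block) and without 12 h replicate 1 (0.0367). LTBR passed with DESeq2 (0.0362), the compared time points alone (0.0456) and without 12 h replicate 1 (0.0412).

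All 23 adaptors and kinases were tested. At 12 h, 2 passed as higher and 2 as lower, beside 4.85% and 6.75% of all genes. At 24 h, 1 passed as higher and 4 as lower, beside 7.82% and 8.49%. IKBKE, an IKK-related kinase of innate immune signalling, was at 2.29 and 1.88 CPM at 0 h, 3.53, 3.69 and 3.06 CPM at 12 h and 3.65, 3.37 and 3.23 CPM at 24 h. Every later library lay above both 0 h libraries. IKBKE rose by 0.71 in log2 at both times (SE 0.16, edgeR adjusted p = 0.00229 and 0.00140), and was the pathway gene called at 12 h. It passed under every alternative tried, and its 24 h value went just under 1.5-fold without the unnumbered 0 h library (0.58, adjusted p = 0.0368).

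The TAB proteins are partners of the kinase upstream of IKK, and TAB1 and TAB2 went in opposite directions at 12 h. TAB3 did not pass, at -0.073 at 12 h and -0.12 at 24 h (edgeR adjusted p = 0.436 and 0.102). TAB1 rose by 0.19 (SE 0.052, edgeR adjusted p = 0.0142) at 12 h and was 0.13 higher at 24 h (adjusted p = 0.0787), whereas TAB2 decreased by 0.19 at 12 h (SE 0.053, adjusted p = 0.0147) and decreased by 0.19 at 24 h (SE 0.053, adjusted p = 0.0135). The 12 h passes were lost with the GC and length correction (0.095 and -0.10, adjusted p = 0.173 and 0.104) and without 0 h replicate 1 (adjusted p = 0.147 and 0.334), that of TAB2 also without 12 h replicate 1 (0.0551). At 24 h TAB1 passed with DESeq2 (0.0381) and without 12 h replicate 1 (0.0451), and the pass of TAB2 was lost without 0 h replicate 1 (0.255) and 24 h replicate 1 (0.112). The remaining passes were named after their values were seen. They were IRAK4 at both times (-0.19 and -0.22, edgeR adjusted p = 0.0490 and 0.0119) and, at 24 h, RBCK1 (-0.14, 0.0472) and BIRC2 (-0.19, 0.0308). The groups of BIRC2 overlapped at 24 h. The alternatives were not run for IRAK4, RBCK1 and BIRC2. The IKK subunits did not pass: CHUK was at -0.054 and -0.031, IKBKB at 0.0070 and 0.13, and IKBKG at -0.12 and -0.011.

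Of the 5 other Rel and IkB genes, NFKBIB, which encodes IkB beta, passed. It was at 20.1 and 22.9 CPM at 0 h, 18.3, 17.1 and 18.0 CPM at 12 h and 17.4, 17.5 and 17.1 CPM at 24 h, so that all later libraries lay below both 0 h libraries. NFKBIB decreased by 0.27 in log2 at 12 h (SE 0.071, edgeR adjusted p = 0.0120) and decreased by 0.31 at 24 h (SE 0.071, adjusted p = 0.00231). Both passes were lost without the unnumbered 0 h library (-0.16 and -0.21, adjusted p = 0.253 and 0.106). BCL3, a nuclear IkB protein, was at 0.12 and -0.13 (adjusted p = 0.567 and 0.532), and NFKBID, another, at 0.27 and -0.082 (0.431 and 0.843).

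Of the 9 other negative regulators, 0 passed as higher and 2 as lower at 12 h, beside 11.6% of all genes in either direction. At 24 h, 1 passed as higher and 3 as lower, beside 16.3%. The medians of the group were -0.066 and -0.11. RNF11 and TAX1BP1 work with TNFAIP3 in its ubiquitin-editing complex. RNF11 decreased by 0.26 at 12 h (SE 0.050, edgeR adjusted p = 0.000563) and decreased by 0.25 at 24 h (SE 0.050, adjusted p = 0.000410). TAX1BP1 decreased by 0.20 at 12 h (SE 0.048, adjusted p = 0.00581) and stood at -0.12 at 24 h (adjusted p = 0.0799). Both 12 h passes were lost without 0 h replicate 1 (adjusted p = 0.0728 and 0.352), and at 24 h TAX1BP1 passed with the compared time points alone (0.0495), the GC and length correction (0.0299, or 0.0397 with the replicate block), and without the unnumbered 0 h library (0.00612) or 12 h replicate 1 (0.0351). ZC3H12A, an RNase that degrades cytokine messengers, was 0.29 higher at 12 h (adjusted p = 0.0615) and rose by 0.41 at 24 h (SE 0.10, adjusted p = 0.00350), a pass lost without 0 h replicate 1 (0.29, 0.184). At 12 h ZC3H12A passed with no filter on counts (adjusted p = 0.0265), among genes averaging 100 counts or more (0.0445), with the replicate block (0.0380), and without the unnumbered 0 h library (0.0253) or 24 h replicate 2 (0.0471). The deubiquitinase CYLD (-0.22, edgeR adjusted p = 0.00968) and the ligase ITCH (-0.19, 0.0169), named after their values were seen, passed at 24 h. For both the alternatives were not run, and ITCH shares 23.4% of its exon bases with another gene on the same strand.

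Cytokine and chemokine targets gave little to test: of 12 genes 8 had a row and 2 were tested. IL6 had 1 count in all, CXCL8 at most 3 in a library, CCL2 at most 6 and CCL20 at most 9. LIF, a cytokine of the IL-6 family, stood at -0.29 at 12 h (edgeR adjusted p = 0.0506) and decreased by 0.42 at 24 h (SE 0.098, adjusted p = 0.00216), from 9.34 and 9.30 CPM at 0 h to 6.85, 6.49 and 7.56 CPM. At 12 h LIF passed with the GC and length correction (adjusted p = 0.00881, or 0.0322 with the replicate block), among genes averaging 100 counts or more (0.0440) and without 12 h replicate 1 (0.0445). CSF1, which drives macrophage growth, lay between 0.495 and 1.09 CPM and did not pass, at 0.57 and 0.73 (SE 0.27 each, adjusted p = 0.206 and 0.0681).

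Of 20 survival genes and other targets, 13 were tested. At 12 h, 1 passed as higher and 3 as lower, beside 11.6% of all genes in either direction. At 24 h, 4 of the group passed as higher and 3 as lower, beside 16.3%. The largest increase was that of TNFAIP2, a TNF-induced gene, at 1.40 and 1.49 CPM at 0 h, 1.60, 2.01 and 2.28 CPM at 12 h and 2.32, 2.98 and 2.87 CPM at 24 h. It was 0.45 higher at 12 h (SE 0.19, edgeR adjusted p = 0.140) and rose by 0.92 at 24 h (SE 0.19, adjusted p = 0.000669), a called change that held under every alternative tried. TNFAIP8, an anti-apoptotic TNF-induced gene, went the other way, from 22.4 and 20.6 CPM at 0 h to 16.9, 15.7 and 17.1 CPM at 12 h and 14.3, 15.4 and 15.2 CPM at 24 h. TNFAIP8 decreased by 0.38 at 12 h (SE 0.072, adjusted p = 0.000480) and decreased by 0.53 at 24 h (SE 0.072, adjusted p = 2.32e-06).

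KLF6, a zinc finger transcription factor, decreased by 0.40 at 12 h (SE 0.086, edgeR adjusted p = 0.00167) and decreased by 0.48 at 24 h (SE 0.086, adjusted p = 0.000133). XIAP, a caspase inhibitor related to BIRC3, decreased by 0.24 at 12 h (SE 0.053, adjusted p = 0.00274) and decreased by 0.31 at 24 h (SE 0.053, adjusted p = 5.16e-05). Without 0 h replicate 1 the 12 h passes of TNFAIP8, KLF6 and XIAP were lost (adjusted p = 0.0501, 0.0966 and 0.292), while those at 24 h passed in every alternative tried. The other genes of this group that passed were named after their values were seen, and all were higher. They were EFNA1 at 12 h (0.20, edgeR adjusted p = 0.0272) and, at 24 h, CD83 (0.36, 0.0285), SDC4 (0.14, 0.0429) and SQSTM1 (0.20, 0.00190). The alternatives were not run for EFNA1, CD83, SDC4 and SQSTM1, and SQSTM1 shares 21.0% of its exon bases with MRNIP on the other strand.

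**Figure D4:**
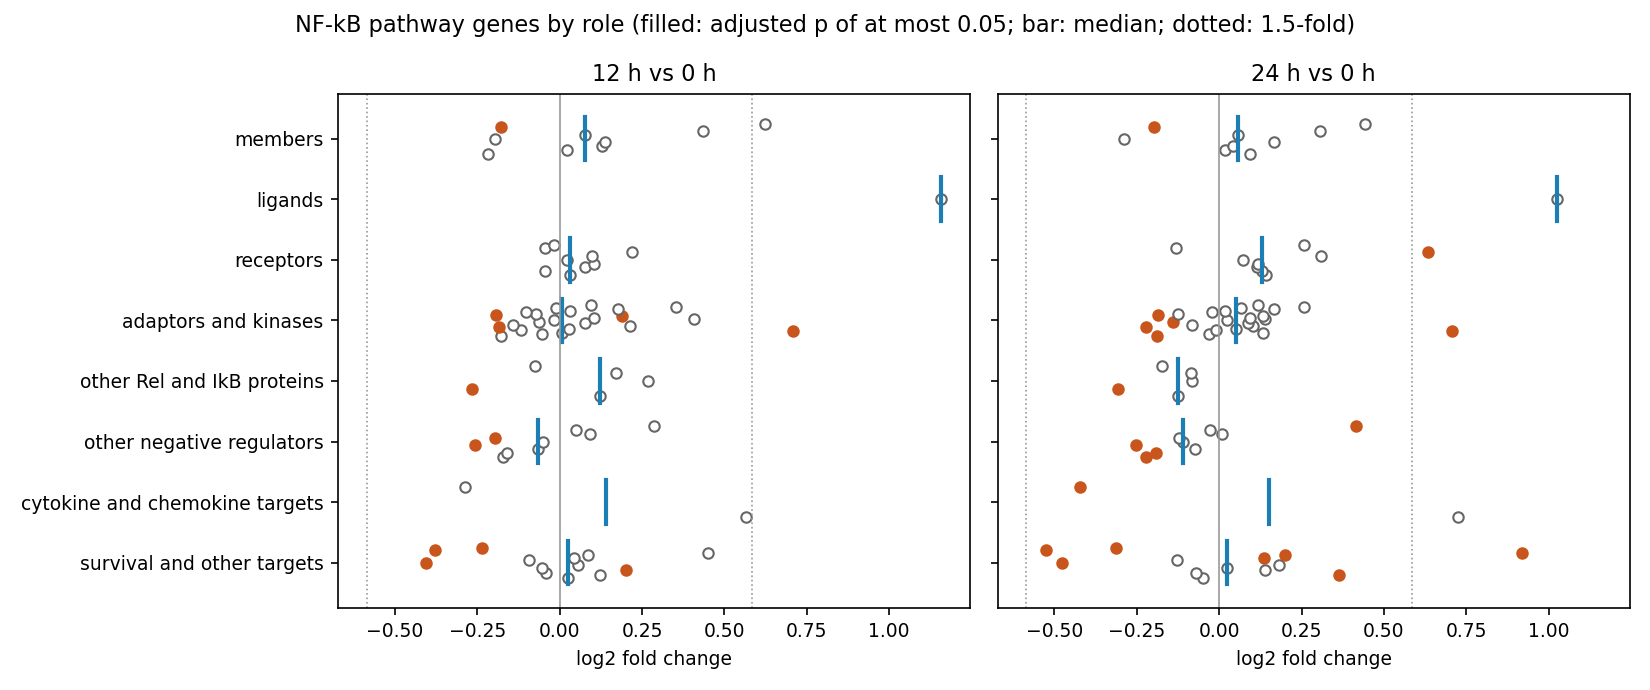
Log2 fold change (horizontal axis) at 12 h and at 24 h against 0 h for the 9 tested genes described above (top row, "members") and the 62 other tested pathway genes in 7 groups by role; each point is a gene, filled points passed at an adjusted p of at most 0.05, bars are group medians and dotted lines mark 1.5-fold. Filled points beyond 1.5-fold are IKBKE at both times and TNFRSF12A and TNFAIP2 at 24 h, all higher.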

How the data were processed

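Messenger RNA libraries of LNCaP cells were sequenced at 0, 12 and 24 h of ASPN treatment. The deposited values are raw counts of reads per gene. According to the study's methods, the authors trimmed reads with Cutadapt, aligned them to GRCh38.p13 with STAR, counted GENCODE genes with featureCounts, and left out a time-0 replicate for quality. Strand, read-pair and multi-mapping options were not given in the sources used here, so overlapping genes and near-identical copies can share reads. Groups came from the labels. The 0 h column numbered 3 matches no 0 h title and was used as a 0 h library without a number.

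Genes kept by filterByExpr (21071 of 36474) entered a single model in edgeR 4.0.16 under R 4.3.3 and its quasi-likelihood F test (robust, TMM, 1 coefficient per time, all 8 libraries), with Benjamini-Hochberg adjustment. Standard errors (SE) came from the fold change and F, and intervals from t with the fitted degrees of freedom. The biological coefficient of variation was 5.59%. The test was also run on counts simulated from mean levels and fitted dispersions of these data. Such counts cannot show how it behaves on the real libraries. Libraries of a group differed by more than sampling noise (chi-square per degree of freedom 5.32 to 15.2 for 7 pairs), so each was counted once. Lengths, strands and overlaps were taken from GENCODE 44 on GRCh38, whose coordinates equalled those of the file for 30996 of 30996 genes of the same version. In all, 36399 genes were matched, and the others were not part of this check. For NFKB1, RELA, RELB, NFKBIA, TNFAIP3 and BIRC3 the start or end in the file, given above, differed from that in GENCODE 44. SOD2, which has another identifier there, was matched by symbol and coordinates. Promoter sequences came from RefSeq, on GRCh38.p14, matched by symbol for 8 of the 10 genes.

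The 10 genes and the pathway lists were chosen with earlier results of these data known. Named were the 10 genes, the 3 tested genes with the smallest p of each other list, every list gene called at 1.5-fold, and the 3 genes with the highest correlation to the gene of the 10 with the smallest p (log2 of CPM with a pseudocount of 0.5). Alternatives were RLE and upper-quartile scaling, no filter on counts or only genes averaging 100 normalized counts or more, DESeq2 1.42.0, the compared time points alone, a GC and length correction, a replicate block, each library left out in turn and, added after seeing the data, the union of exons as length.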

Additional observations from a re-analysis of the deposited data

How the results depend on the processing

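Over the alternatives tried, 422 values for the 9 genes kept their direction and their side of the threshold, 13 lost a pass, 5 gained one and 19 turned sign, and for the other named genes these counts were 607, 18, 25 and 3. The count of passing genes among the 9 at 12 h against 0 h went from 1 to 0 with upper-quartile scaling (SOD2 adjusted p = 0.0516) and with the compared time points alone (0.0940), and ran from 0 to 3 when a library was left out. At 24 h against 0 h it ran from 0 to 2, and at 24 h against 12 h it stayed at 0. With the GC and length correction it was 1 at both times, but the gene was NFKB1 at 12 h and NFKBIE at 24 h in place of SOD2; with the replicate block added, SOD2 passed at both times (0.0152 and 0.0209) and NFKB1 (0.0575) and NFKBIE (0.0759) did not. For the other pathway genes the counts when a library was left out ran from 2 to 16 around 11 at 12 h, from 9 to 23 around 19 at 24 h, and from 0 to 1 around 1 between 24 h and 12 h, where the GC and length correction gave 3 and, with the replicate block, 2. Over all genes the leave-one-out counts ran from 624 to 2761 around 2443, from 1597 to 4047 around 3437, and from 222 to 730 around 574, where the GC and length correction gave 1109. Without 1 of the 0 h libraries, the lone 0 h library is assumed to vary like the other groups. The cause of these shifts was not tested.

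Signs that turned belonged to differences that did not pass. With the GC and length correction, without and with the block, NFKB2 at 24 h against 0 h was -0.077 and -0.051, RELA was -0.0027 and -0.0025, SOD2 at 24 h against 12 h was 0.017 and 0.018, and BCL3 at 12 h was -0.0025 without the block. When a library was left out, NFKB1 ran from -0.0020 to 0.061 at 12 h, from -0.011 to 0.046 at 24 h and from -0.043 to 0.014 between them, BIRC3 from -0.52 to 0.20 and from -0.21 to 0.51 against 0 h, NFKB2 from -0.044 to 0.13 at 24 h, NFKBID from -0.25 to 0.091 at 24 h, and, at 24 h against 12 h, RELA from -0.043 to 0.0012, NFKBIA from -0.026 to 0.073 and SOD2 from -0.063 to 0.043.

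For same-numbered libraries, the correlations of their deviations from the group means over 13464 genes ran from -0.178 to 0.119. Only the 12 h and 24 h libraries numbered 1 exceeded 0.1. Differently numbered libraries ran from -0.126 to 0.178. The 2 libraries at 0 h deviate by equal and opposite amounts, so their correlations mirror each other and the check cannot decide on pairing. The numbers were not taken as pairs. In this check and in the block, the unnumbered 0 h library was placed with the libraries numbered 3, the number its column carries. With the replicate block the counts were 1, 1 and 0 for the 9 genes and 11, 17 and 1 for the other pathway genes, and SOD2 had an adjusted p of 0.0198 at 12 h and 0.00755 at 24 h. Scarce transcripts limit what could be seen: the SE of TNFAIP3 was 0.26 and that of RELB 0.20 on the log2 scale, beside 0.049 for RELA, and ICAM1 could not be assessed at this depth.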
